A study of Arabidopsis thaliana with 33 samples.

Results

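The 42 genes described here encode, in the nucleus, the light-harvesting antenna proteins, the photosystem subunits and the small subunit of Rubisco of Arabidopsis thaliana. They came from a list of names, 14 LHCB, 6 LHCA, 10 PSA, 8 PSB and 4 RBCS genes, that sets no threshold on a measured value but was drawn up with earlier results of these data known. The list does not hold every gene of these families, and PSAE2, PSAH1, PSBQ1, PSBTN, PSBP2 and LHCB7 were read with the other photosystem subunits. Each of the 42 was listed in all 3 of the authors' comparison tables, out of 23044 genes listed in at least 1 table. The comparisons set arp6-1 mutants, brm-1 mutants and arp6-1;brm-1 (arp6;brm) double mutants, called arp6, brm and the double mutant here, against wild type (WT). RNA came from nuclei of shoots at the stage of 4 to 5 leaves, grown on soil with 16 h of light and 8 h of darkness, with 3 biological replicates of each genotype. The arp6 line is mutated in a component of SWR1, the remodeller that deposits histone H2A.Z, the brm line in the SWI/SNF ATPase BRAHMA, and the double mutant in both, each represented by 1 allele. The H2A.Z ChIP-seq, MNase-seq and arp6 genomic libraries of the series were not used here.

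Photosystem II and photosystem I are the pigment-protein complexes of the thylakoid membrane that use light to move electrons from water to ferredoxin. LHCB proteins form the antenna of photosystem II and LHCA proteins that of photosystem I, and both bind chlorophyll. Rubisco, in the chloroplast stroma, fixes carbon dioxide and is built from a plastid-encoded large subunit and a nuclear-encoded small subunit. In Arabidopsis most nuclear genes of this set are strongly expressed in leaf mesophyll and respond to light, and the GLK transcription factors activate antenna genes among them. Transcripts of the plastid genome, such as that of the Rubisco large subunit, were not analysed here.

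The tables hold a fitted log2 fold change of mutant over WT, an average log2 CPM (CPM being counts scaled to library size, averaged over both genotypes), a p-value and an adjusted p for each gene. They give no value per library, so the spread between replicates could not be printed and the depth per library is unknown. A gene was called where its adjusted p from the authors' edgeR test over the whole table was under 0.05. The log2 fold change of ARP6 was -5.73 in arp6 and -5.60 in the double mutant, and that of BRM was -5.64 in brm and -8.87 in the double mutant, per the authors' deposited tables. By the average log2 CPM, the 42 genes held 11.7%, 12.0% and 11.8% of all counts assigned to genes in the tables of arp6, brm and the double mutant. Rows for reads without a gene, with several alignments or with an ambiguous gene held 66.9%, 69.3% and 70.7% of the counts.

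Every call among the 42 genes was a lower level in the mutant. In arp6 7 of the 42 fell, in brm 5 fell and in the double mutant 11 fell, and no member was called higher, per the authors' deposited tables. At an unadjusted p under 0.05 the edgeR test gave 20, 12 and 18 lower members and 0, 0 and 1 higher. Over all genes it gave 1864 of 22046, 2566 of 21925 and 2918 of 22352 lower, and 1740, 2727 and 2667 higher. Of all genes in the table of arp6, 6.03% were called in either direction and 3.02% were called lower, against 16.7% of the members. In brm, 13.8% of all genes were called and 6.14% were called lower, against 11.9% of the members. In the double mutant, 13.3% of all genes were called and 7.14% were called lower, against 26.2% of the members. Against all genes called in either direction, whose counts are mostly far lower, the share of members called was higher in arp6 and the double mutant and near the background in brm. Against genes called lower, the members' share was higher in each table, which was not tested. In whole shoots, fewer photosynthetic cells and less transcript per cell cannot be told apart.

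The members have high counts, with a median of the average log2 CPM of 9.48, 9.53 and 9.34 in the tables of arp6, brm and the double mutant. Among other genes within the members' range of average log2 CPM, 8.19% were called in arp6, 23.7% in brm and 19.2% in the double mutant, and 3.81%, 10.8% and 11.1% were called lower. These genes still had far fewer counts, with a median of 3.99, 3.76 and 4.02, since LHCB4.3 sets the lower end of the range. The median log2 fold change of the 42 members was -0.34 in arp6, -0.22 in brm and -0.29 in the double mutant, per the authors' deposited tables. Over all genes in the tables it was -0.02, -0.02 and 0.00, and over other genes within the members' range it was 0.01, -0.01 and 0.00. A narrower background of other genes whose log2 CPM averaged 8 or more was chosen after the values were seen. Its median was -0.08 in arp6 (91 genes), -0.22 in brm (76 genes) and -0.07 in the double mutant (78 genes), per the authors' deposited tables. In brm the members' median of -0.22 did not stand below that of other genes with high counts. Of these high-count genes, 6.59% were called in arp6, 40.8% in brm and 23.1% in the double mutant, and 4.4%, 28.9% and 19.2% were called lower. The 34 members at this level were called in 14.7%, 5.88% and 29.4% of cases, all lower. Against this background the members' share was higher in arp6 and lower in brm, in either direction and among lower calls alone. In the double mutant it was 29.4%, against 23.1% of the other genes called in either direction and 19.2% called lower. Log2 fold changes below 0 were found for 90.5%, 78.6% and 78.6% of the 42 members in arp6, brm and the double mutant. Over all genes the shares were 51.6%, 51.1% and 49.6%. Of the 34 high-count members, 91.2%, 73.5% and 85.3% lay below 0, against 58.2%, 67.1% and 61.5% of the other high-count genes. Between 19 and 20 of the high-count genes belong to the other photosynthesis and marker lists below, so they are not a background free of photosynthesis.

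**Figure D1:**
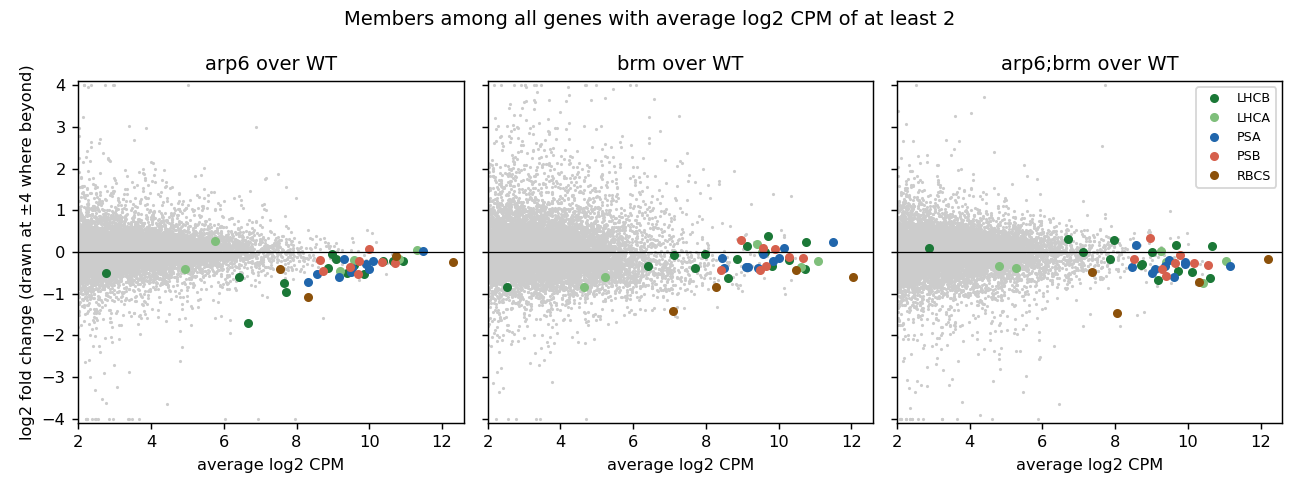
Each panel plots the log2 fold change of mutant over WT against the average log2 CPM from the authors' deposited tables, for arp6, brm and arp6;brm. Grey points are all genes whose log2 CPM averaged 2 or more, coloured points the 42 members by family, and most members lie below 0 at the right of each panel. Of other genes whose log2 CPM averaged 8 or more, 58.2%, 67.1% and 61.5% also lay below 0. Changes beyond 4 in size are drawn at the edge.

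Single members could be placed among other genes within 0.5 of their average log2 CPM where at least 20 such genes were listed. In arp6 this held for 25 members, of which 23 lay below the median of their neighbours in level and 14 among the lowest 10%. In brm it held for 18 members, with 12 below the median and 4 among the lowest 10%. In the double mutant it held for 24 members, with 16 below the median and 2 among the lowest 10%, PSBX and RBCS2B. No member with 20 such genes lay among the highest 10% in any table. LHCB2.2 in arp6 had a log2 fold change higher than 2 of 400 genes of like level, and RBCS2B in the double mutant one higher than 1 of 96, per the authors' deposited tables. The members left out were those with the highest counts in each table, so these placements describe only the members with fewer counts. Among those left out, RBCS1A, PSAF and LHCA1 had no or almost no other gene within 0.5 of their level.

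A log2 fold change below 0 in all 3 tables was found for 25 of the 42 members, and above 0 in all 3 for none. The 3 comparisons use the same WT libraries, so their values for a gene are related and this count is only a description. Of the 42, 23 were called in no table, 16 in 1 table, 2 in 2 tables (LHCB5 and RBCS1B) and 1, RBCS2B, in all 3 tables. Over all genes, neither this split nor the count with the same sign in all 3 tables was computed. Neither is thus shown to be particular to the members.

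**Figure D2:**
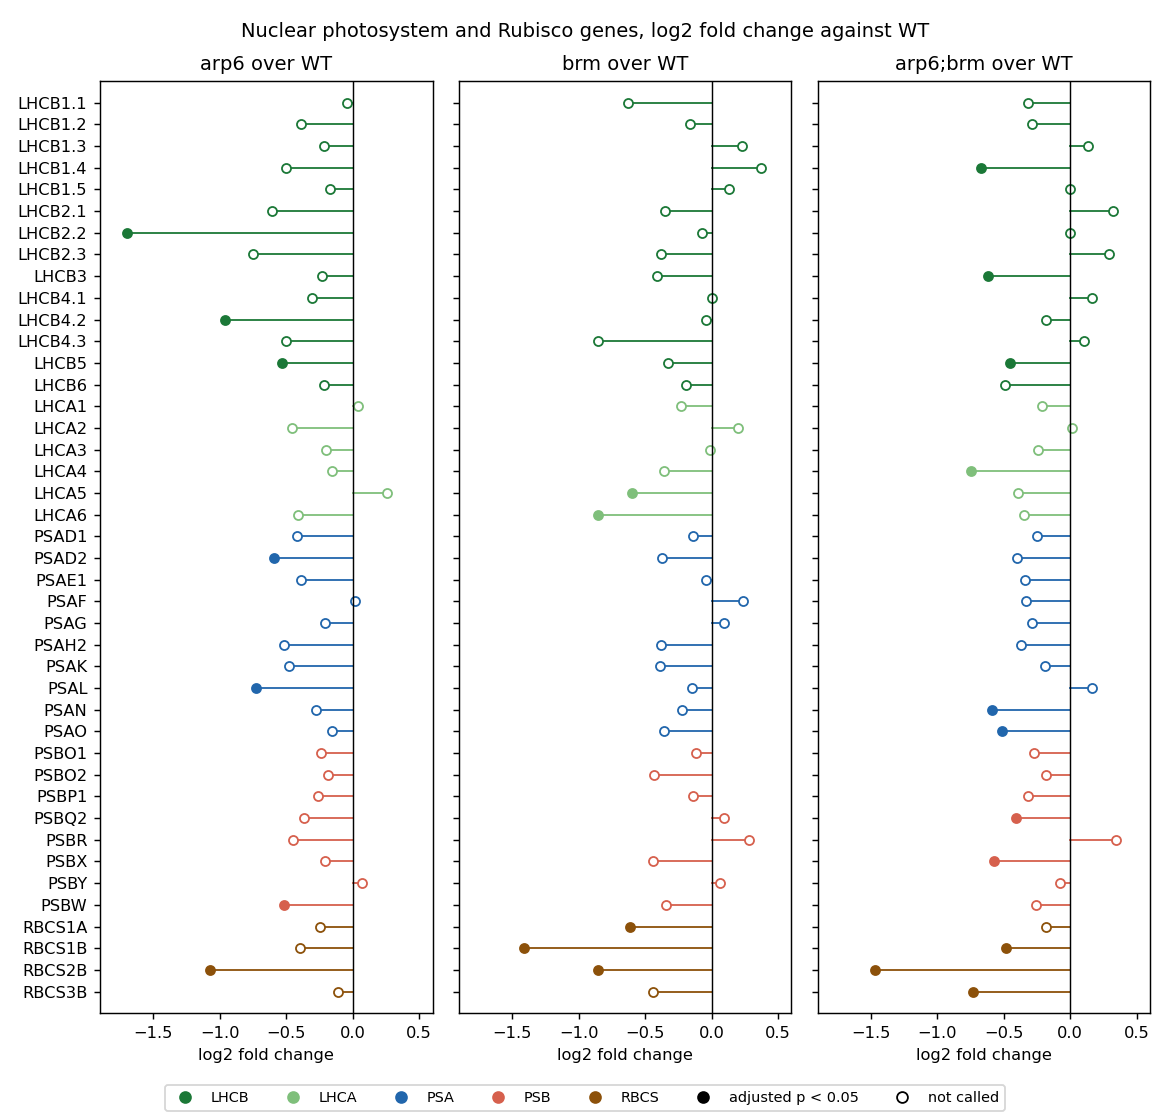
Each row is a member gene and each panel a mutant, with the log2 fold change of mutant over WT on the horizontal axis, from the authors' deposited tables. Filled points had an adjusted p under 0.05 and all of these lie left of 0, and colours mark the 5 families.

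The antenna of photosystem II held the member with the lowest value in arp6. As a background for the calls by family, 3.02%, 6.14% and 7.14% of all genes were called lower in arp6, brm and the double mutant. Among other genes whose log2 CPM averaged 8 or more, the shares were 4.4%, 28.9% and 19.2%. All 14 LHCB genes had a log2 fold change below 0 in arp6, with a median of -0.44, and 3 of them fell. In arp6, 51.6% of all genes and 58.2% of other genes whose log2 CPM averaged 8 or more lay below 0. LHCB2.2 (AT2G05070, chromosome 2), which encodes a subunit of the major antenna trimers, fell by 1.70 on the log2 scale, per the authors' deposited table of arp6, with an edgeR adjusted p of 9.53e-13. It had a log2 fold change of -0.07 in brm and 0.00 in the double mutant, per the authors' deposited tables, with edgeR adjusted p values of 0.93 and 1. From the fold change and the average level, taken as the mean of both genotypes, the arp6 table implies 47.5 CPM in arp6 and 155 CPM in WT. The tables of brm and the double mutant imply 137 CPM in brm against 144 CPM in WT and 140 CPM in the double mutant against 139 CPM in WT. The low level in arp6 was thus not seen in the double mutant, although both carry the arp6 mutation. The difference between arp6 and the double mutant could not be tested without values per library.

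The close homologues of LHCB2.2, whose sequences are near-identical to it, were not called in arp6. LHCB2.1 (AT2G05100), the next protein-coding gene on chromosome 2, stood at a log2 fold change of -0.61 and LHCB2.3 (AT3G27690) one of -0.75, per the authors' deposited table of arp6. Their edgeR adjusted p values were 0.0699 and 0.0877. In the double mutant LHCB2.1 had 0.32 and LHCB2.3 had 0.29, per the authors' deposited table, neither called. Of the 10 protein-coding genes nearest to LHCB2.2, 5 were listed in the table of arp6, none of them called lower and 1 called higher.

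The minor antenna proteins link the trimers to the photosystem II core. Among their genes, LHCB4.2 (AT3G08940) fell by 0.96 on the log2 scale in arp6, per the authors' deposited table, with an edgeR adjusted p of 0.000546. Its implied level was 142 CPM in arp6 and 276 CPM in WT. It had -0.04 in brm and -0.18 in the double mutant, per the authors' deposited tables, neither called. LHCB4.1 (AT5G01530), which encodes the other main form of the same protein, CP29, was not called in any table, with -0.31 in arp6 and 0.16 in the double mutant, per the authors' deposited tables. LHCB5 (AT4G10340), which encodes CP26, fell in arp6 and in the double mutant, by 0.53 and 0.45 on the log2 scale, per the authors' deposited tables. Its edgeR adjusted p values there were 0.0234 and 0.0263, and in brm it had -0.33 with 0.252. The tables imply 757 CPM in arp6 against 1090 CPM in WT, and 717 CPM in the double mutant against 981 CPM in WT. LHCB6, which encodes CP24, had -0.22, -0.19 and -0.49 in arp6, brm and the double mutant, per the authors' deposited tables, and LHCB4.3, the member with the fewest counts, had -0.50, -0.85 and 0.10. Neither was called.

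Of other genes whose log2 CPM averaged 8 or more, 40.8% were called in brm. None of the 14 LHCB genes was called there by the edgeR test, and 3 had an unadjusted p under 0.05. Their log2 fold changes ran, per the authors' deposited table of brm, from -0.85 for LHCB4.3 to 0.37 for LHCB1.4, with a median of -0.18. In the double mutant 3 LHCB genes fell, with 8 of 14 values below 0 and a median of -0.09. LHCB1.4 (AT2G34430), a gene of the most abundant antenna protein, fell by 0.67 and LHCB3 (AT5G54270), a further trimer subunit, by 0.62 on the log2 scale, per the authors' deposited table of the double mutant. Their edgeR adjusted p values were 0.0026 and 0.00156. The implied levels were 445 CPM in the double mutant against 707 CPM in WT for LHCB1.4, and 1220 CPM in the double mutant against 1880 CPM in WT for LHCB3. LHCB1.4 had -0.50 in arp6 and 0.37 in brm, per the authors' deposited tables, and LHCB3 had -0.23 and -0.41, none of them called. The other LHCB1 genes, LHCB1.1, LHCB1.2, LHCB1.3 and LHCB1.5, were not called in any table, with values per the authors' deposited tables between -0.63 (LHCB1.1 in brm) and 0.23 (LHCB1.3 in brm).

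Of the photosystem I antenna, no LHCA gene was called in arp6 by the edgeR test, and 2 of 6 had an unadjusted p under 0.05. Values per the authors' deposited table of arp6 ran from -0.46 for LHCA2 to 0.26 for LHCA5. In brm LHCA5 and LHCA6 fell. They encode minor antenna proteins that take part in joining photosystem I to the chloroplast NDH complex. LHCA6 (AT1G19150) fell by 0.85 on the log2 scale, per the authors' deposited table of brm, at an edgeR adjusted p of 0.000776 and an implied 17.8 CPM in brm against 32.2 CPM in WT. LHCA5 (AT1G45474) fell by 0.60, per the authors' deposited table of brm, at an edgeR adjusted p of 0.0332 and an implied 30.1 CPM in brm against 45.5 CPM in WT. Neither was called in the double mutant, with -0.35 for LHCA6 and -0.39 for LHCA5, per the authors' deposited table. There LHCA4 (AT3G47470), a subunit of the standard antenna belt, fell by 0.75 on the log2 scale, per the authors' deposited table, with an edgeR adjusted p of 0.000214 and an implied 1020 CPM in the double mutant against 1720 CPM in WT. LHCA4 had -0.16 in arp6 and -0.36 in brm, per the authors' deposited tables. LHCA1, LHCA2 and LHCA3 were not called in any table.

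Among the photosystem I core subunits, PSAD2 and PSAL fell in arp6, none was called in brm, and PSAN and PSAO fell in the double mutant. PSAD2 (AT1G03130), for a stromal subunit at the ferredoxin docking site, fell by 0.59 and PSAL (AT4G12800), for a subunit at the docking site of the mobile antenna, by 0.73 on the log2 scale, per the authors' deposited table of arp6. The edgeR adjusted p values were 0.0116 and 0.0132. Implied levels were 462 CPM in arp6 against 695 CPM in WT for PSAD2, and 239 CPM in arp6 against 395 CPM in WT for PSAL. PSAD1, the second gene of the same subunit, had -0.42 in arp6, per the authors' deposited table, with an adjusted p of 0.11. PSAL had 0.16 in the double mutant, per the authors' deposited table. PSAN (AT5G64040), for a subunit on the lumen side, fell by 0.59 and PSAO (AT1G08380) by 0.51 on the log2 scale, per the authors' deposited table of the double mutant. The edgeR adjusted p values were 0.00187 and 0.0151, and the values in arp6 were -0.28 and -0.16, per the authors' deposited table. Implied levels were 634 CPM in the double mutant against 955 CPM in WT for PSAN, and 422 CPM in the double mutant against 602 CPM in WT for PSAO. In brm 1 of 10 PSA genes had an unadjusted p under 0.05 by the edgeR test. PSA values per the authors' deposited table of brm ran from -0.39 for PSAK to 0.24 for PSAF. PSAF, for a plastocyanin-docking subunit, was not called in any table, nor were PSAE1, PSAG, PSAH2 and PSAK. Of these, PSAH2 came nearest to the threshold, with -0.52 and an edgeR adjusted p of 0.0525 in arp6, per the authors' deposited table.

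Among the 8 photosystem II subunits, 1 fell in arp6, none was called in brm and 2 fell in the double mutant. PSBW (AT2G30570), a small subunit of the core, fell by 0.52 on the log2 scale, per the authors' deposited table of arp6, with an edgeR adjusted p of 0.0399 and an implied 680 CPM in arp6 against 973 CPM in WT. In brm 2 PSB genes had an unadjusted p under 0.05 by the edgeR test. PSBX (AT2G06520) fell by 0.57 and PSBQ2 (AT4G05180), of the oxygen-evolving complex, by 0.41 on the log2 scale, per the authors' deposited table of the double mutant. Their edgeR adjusted p values were 0.00877 and 0.0466. Implied levels were 546 CPM in the double mutant against 809 CPM in WT for PSBX, and 542 CPM in the double mutant against 721 CPM in WT for PSBQ2. PSBR had the highest PSB value in brm and in the double mutant, 0.28 and 0.34, per the authors' deposited tables, and -0.45 in arp6, and it was not called in any table. PSBY, with values between -0.08 and 0.07, was not called either. PSBO1 and PSBO2, for the manganese-stabilising protein, and PSBP1 were not called in any table. Their values per the authors' deposited tables ran from -0.43 (PSBO2 in brm) to -0.12 (PSBO1 in brm).

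The 4 RBCS genes had a log2 fold change below 0 in every table. Their medians were -0.33 in arp6, -0.73 in brm and -0.60 in the double mutant. In arp6 1 of the 4 fell, and in brm and the double mutant 3 of the 4. Of other genes whose log2 CPM averaged 8 or more, 4.4%, 28.9% and 19.2% were called lower in arp6, brm and the double mutant. Of those genes, 58.2%, 67.1% and 61.5% lay below 0. RBCS2B (AT5G38420, chromosome 5) fell in each mutant, its log2 fold change being -1.07 in arp6, -0.85 in brm and -1.47 in the double mutant, per the authors' deposited tables. Its edgeR adjusted p values were 1.6e-07, 0.000118 and 3.32e-16. The tables imply 204 CPM in arp6 against 429 CPM in WT, 221 CPM in brm against 399 CPM in WT, and 139 CPM in the double mutant against 387 CPM in WT. RBCS1B (AT5G38430), its neighbour, fell by 1.41 in brm, per the authors' deposited table, with an edgeR adjusted p of 2.46e-06, and its implied level was 74.5 CPM in brm and 198 CPM in WT. It fell by 0.48 in the double mutant, with an adjusted p of 0.0286, and had -0.40 in arp6 with 0.291, per the authors' deposited tables. The low value of RBCS1B in brm was not matched in the double mutant, where the implied levels were 138 CPM in the double mutant and 192 CPM in WT.

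RBCS1A, the RBCS gene with the most counts, was called in 1 table. This gene (AT1G67090, chromosome 1) fell by 0.61 on the log2 scale, per the authors' deposited table of brm, at an edgeR adjusted p of 0.015 and an implied 3360 CPM in brm against 5110 CPM in WT. It had -0.25 in arp6 and -0.18 in the double mutant, per the authors' deposited tables, neither called. RBCS3B (AT5G38410) fell by 0.73 on the log2 scale, per the authors' deposited table of the double mutant, with an edgeR adjusted p of 0.0014 and an implied 958 CPM in the double mutant against 1590 CPM in WT. It had -0.11 in arp6 and -0.44 in brm, per the authors' deposited tables, with edgeR adjusted p values of 0.82 and 0.0939. The WT levels implied by the 3 tables can be set against each other, since they come from the same libraries. Over the 42 members the highest and lowest implied WT level differed by a median ratio of 1.11 and by at most 1.12. The ratio was nearly the same for every member, as for RBCS1A with 5500, 5110 and 4960 CPM beside arp6, brm and the double mutant. It is thus a difference in scale between the comparisons and no check of single genes. Implied levels are best read against WT of the same comparison.

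**Figure D3:**
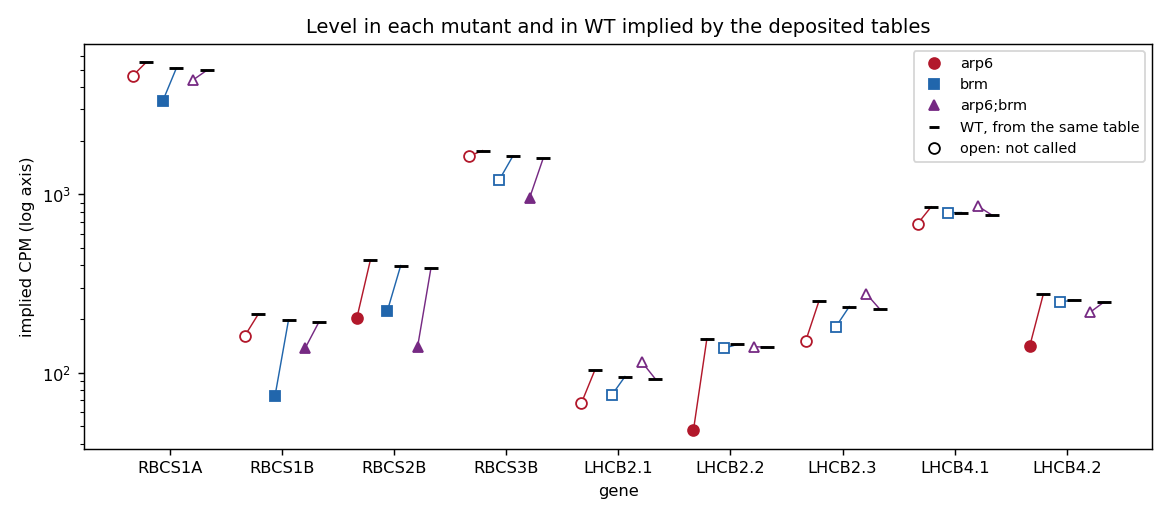
The level of RBCS and selected LHCB genes in each mutant (coloured) and in WT (black bar) is plotted in CPM on a log axis, as implied by the fold change and average of each of the authors' deposited tables. Open symbols were not called. LHCB2.2 is low in arp6 at 47.5 CPM, RBCS1B is lowest in brm at 74.5 CPM, and RBCS2B is low in all 3 mutants.

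Near-identical copies and overlapping genes limit single values. LHCB1, LHCB2 and 3 of the RBCS genes are sets of near-identical copies, 11 members in all. LHCB1.1 to LHCB1.3, LHCB1.4 with LHCB1.5, LHCB2.1 with LHCB2.2 and RBCS1B to RBCS3B also lie next to each other with no other protein-coding gene between. Paired reads of 36 nt from such copies can align to several of them, and the row of reads with several alignments stood at -0.23, 0.11 and 0.34 on the log2 scale for arp6, brm and the double mutant, per the authors' deposited tables, none of them called. Reads in that row are not counted to any gene, so the counts of these members leave out an unknown share of their reads. The part of this loss in their changes was not tested. Besides, 15 of the 42 members are overlapped by another annotated gene, among them LHCB3, LHCB4.2, LHCA4, LHCA5, PSAD2 and PSAN, and whether counting used strand is not given in the sources used here.

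Markers of other shoot cell types were read beside the members. No marker of guard cells (6 genes), epidermis (4), vascular tissue (5) or meristem (3) was called in arp6 or the double mutant, and with an unadjusted p under 0.05 by the edgeR test there were 0 in arp6 and, in the double mutant, 2 of guard cells and 3 of epidermis. In brm MYB60, of guard cells, fell by 0.71 and CUT1, for a wax-synthesis enzyme of the epidermis, rose by 0.80 on the log2 scale, per the authors' deposited table, with edgeR adjusted p values of 0.0376 and 0.00158. The summed implied level of the 4 epidermal markers was 520 CPM in arp6 and 524 CPM in WT, 649 CPM in brm and 487 CPM in WT, and 504 CPM in the double mutant and 472 CPM in WT. CUT1 was the only epidermal marker called in brm, where ATML1, PDF1 and PDF2 had 0.19, 0.18 and -0.17. For the guard cell markers it was 30.4 CPM in arp6 and 36.7 CPM in WT, 28.3 CPM in brm and 34.0 CPM in WT, and 28.9 CPM in the double mutant and 33.1 CPM in WT. The vascular markers summed to 31.5 CPM in arp6 and 36.4 CPM in WT, 34.2 CPM in brm and 33.9 CPM in WT, and 34.5 CPM in the double mutant and 32.9 CPM in WT. The meristem markers summed to at most 2.11 CPM in any group, and all markers were listed in every table. Values below 0 were found for 5, 3 and 4 of the 6 guard cell markers and for 2, 1 and 1 of the 4 epidermal markers in arp6, brm and the double mutant. Their part in the members' changes was not tested.

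Other genes of photosynthesis were read from lists for the neighbouring steps. As a background for the counts of calls below, 3.02%, 6.14% and 7.14% of all genes were called lower in arp6, brm and the double mutant. Among other genes whose log2 CPM averaged 8 or more, some of them from these lists, the shares were 4.4%, 28.9% and 19.2%. Of 9 further photosystem subunits, 2 fell in arp6, 2 in brm and none was called in the double mutant by the edgeR test, where 1 had an unadjusted p under 0.05. PSB27, a photosystem II assembly factor, fell by 0.79 on the log2 scale in arp6 and PSB28, a second factor of this kind, by 0.95 in brm, per the authors' deposited tables. The edgeR adjusted p values were 0.000401 and 0.000505. PSBS, required for rapid energy dissipation, fell in arp6 and brm, with log2 fold changes of -0.51 and -0.92, and had 0.16 in the double mutant, per the authors' deposited tables. Of 12 genes of electron transport and the ATP synthase, 1 fell in arp6, 6 fell in brm and 3 fell in the double mutant. FD2, the main leaf ferredoxin, fell in all 3, with log2 fold changes of -0.54, -1.01 and -0.77, per the authors' deposited tables of arp6, brm and the double mutant, with edgeR adjusted p values of 0.0246, 3.99e-06 and 0.000112. FD1, a minor ferredoxin, fell by 0.99 and PGR5, of cyclic electron flow, by 0.73, per the authors' deposited table of brm. In the authors' deposited table of the double mutant, the plastocyanin genes PETE1 and PETE2 fell by 0.82 and 0.52.

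Of 10 Calvin cycle genes, 1 fell in arp6, 7 fell in brm and 2 fell in the double mutant. All 10 had a log2 fold change below 0 in each table, with a median of -0.60 in brm. Among other genes whose log2 CPM averaged 8 or more, 58.2%, 67.1% and 61.5% lay below 0 in arp6, brm and the double mutant. FBA1, for a chloroplast aldolase, fell by 1.08, GAPA2, for a glyceraldehyde-phosphate dehydrogenase, by 0.90 and RCA, for Rubisco activase, by 0.86 on the log2 scale, per the authors' deposited table of brm. Their edgeR adjusted p values were 6.9e-07, 4.22e-05 and 0.000374. FBA1 also fell in arp6, by 0.55, per the authors' deposited table. GAPA2 fell by 0.59 and PRK, for phosphoribulokinase, by 0.44, per the authors' deposited table of the double mutant. Whether the lists differ between mutants was not tested.

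Of 10 chlorophyll synthesis genes, none was called in arp6 by the edgeR test, and 3 had an unadjusted p under 0.05. In brm 4 fell, with CAO (chlorophyll b synthesis), CHLH (a magnesium chelatase subunit) and CHLM (a methyltransferase) at log2 fold changes of -0.98, -0.85 and -0.77, per the authors' deposited table. Their edgeR adjusted p values were 0.000169, 0.000211 and 0.000794. HEMA1, for the first enzyme of the tetrapyrrole branch, fell by 0.57 in the double mutant, while DVR and GUN4 rose by 0.65 and 0.72 on the log2 scale, per the authors' deposited table. The edgeR adjusted p values were 0.0293, 0.000942 and 0.0261.

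Of 12 regulators of photosynthesis genes, 4 fell in arp6, 3 fell and 3 rose in brm, and 1 rose in the double mutant. GLK1 and GLK2, transcription factors that activate antenna and chlorophyll genes in Arabidopsis, fell, with log2 fold changes of -1.29 and -1.75, per the authors' deposited table of arp6, with edgeR adjusted p values of 1.68e-10 and 1.79e-09. Both fell in brm too, with log2 fold changes of -0.66 and -1.77, per the authors' deposited table, and edgeR adjusted p values of 0.00551 and 1.97e-06. Neither was called in the double mutant, with -0.47 for each, per the authors' deposited table, at adjusted p values of 0.0506 and 0.087. SIG5, a sigma factor of the plastid RNA polymerase, fell by 1.90 in arp6, per the authors' deposited table, with an edgeR adjusted p of 4.41e-05. It had 0.44 in brm and -0.59 in the double mutant there, neither called. Among the B-box proteins, BBX21 rose by 1.56 and BBX24 fell by 0.77 on the log2 scale, per the authors' deposited table of brm, with edgeR adjusted p values of 7.25e-10 and 0.00111. The regulators BBX20, with few counts (average log2 CPM of 0.35), and CGA1 also rose in brm, by 3.05 and 1.21. Their edgeR adjusted p values were 0.00121 and 0.0315. BBX21 also rose in the double mutant, by 0.73, per the authors' deposited table, with an adjusted p of 0.00168.

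**Figure D4:**
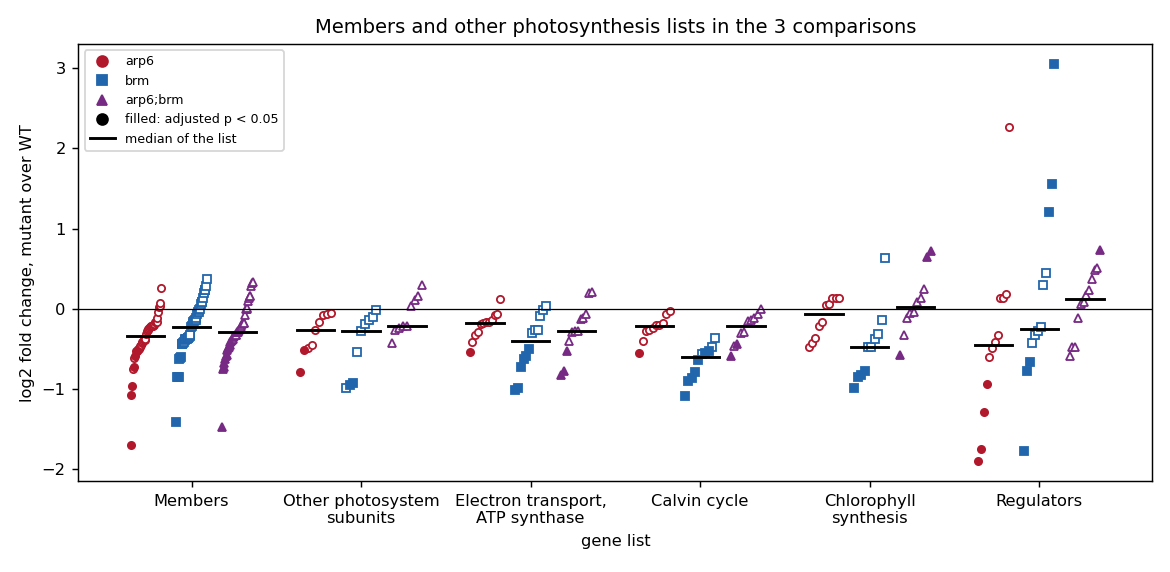
Log2 fold changes of mutant over WT from the authors' deposited tables are plotted for the 42 members and 5 other lists, in arp6, brm and arp6;brm. Filled points had an adjusted p under 0.05 and black lines are the list medians, which for the Calvin cycle lie at -0.22, -0.60 and -0.22.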

How the data were processed

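For RNA-seq of nuclear RNA, the authors deposited 3 tables with the log2 fold change, the average log2 CPM, the p-value and the adjusted p-value per gene, per the file headers. TopHat2, HTSeq, edgeR and the build TAIR10 are named, without roles or versions, per the submitters' processing notes. No counts were given, so the authors' edgeR test was used as it stands in place of a count model. Its Benjamini-Hochberg adjustment over all rows was recomputed and agreed. The 3 rows per table that name no gene were left out of gene counts. Implied CPM assumes that the average is the mean of both genotypes. The window of 0.5 and the minimum of 8 for genes of like level were chosen after the values were seen. Names, neighbours and overlaps came from the RefSeq gene table of TAIR10.1, where all 42 members were found. H2A.Z peaks, nucleosome positions and deletions were not placed on the genes, since no annotation of the files' build was used, and no sequences are shown. Members and lists were chosen with earlier results of these data known. Every member could be named. From other lists, up to 3 called genes with the smallest p-values per comparison were named, and in brm all called regulators. Calculations used Python 3.11.15 and pandas 2.3.3. Only the p-value adjustment and the calling rule were checked on simulated data.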

Additional observations from a re-analysis of the deposited data

How the results depend on the processing

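Of the members, 7 were called for arp6, 5 for brm and 11 for the double mutant. An adjusted p-value under 0.01 left 3, 3 and 7, and one under 0.2 gave 18, 11 and 19. The last count includes PSBR, higher in the double mutant at a log2 fold change of 0.34 and an edgeR adjusted p of 0.195. The shares of all genes at these thresholds were not computed. A log2 fold change of at least 1 in size left 2, 1 and 1 of the 42 members. Over all genes it left 869 of 22046, 1695 of 21925 and 1519 of 22352. At this size the members' share was near that of all genes in arp6 and below it in brm and the double mutant. Without the 11 near-identical members, 5, 3 and 7 of 31 were called. Adjusting over rows that name a gene changed no member's call, and adjusting over genes whose log2 CPM averaged 1 or more added PSAH2 in arp6, LHCB1.1 in brm and LHCB6 in the double mutant. Median log2 fold changes of the members stayed below 0 under each planned centring, without near-identical members and as means. Centring on other genes whose log2 CPM averaged 8 or more, chosen after the data were seen, moved the median to -0.01 for brm, against -0.27 for arp6 and -0.22 for the double mutant. No paired analysis was possible because the tables hold no value per library, and for the same reason no replicate could be left out. The planned H2A.Z and nucleosome results were not run, since gene positions in the files' build were not used here.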
